A study of Mus musculus with 12 samples.

Results

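The genes described here are Fads1, Fads2, Fads3, Elovl2 and Elovl5, the fatty acid desaturases and elongases of polyunsaturated fatty acid synthesis. They were chosen by name, and each was read from the probe set that names it alone, so 5 of 19937 measured genes are covered by 5 probe sets. Transcript levels were measured on 12 Affymetrix whole-transcript arrays of total RNA from the small intestine of wild-type male FVB mice. The low P/S diet, poor in polyunsaturated relative to saturated fat, and the control high-fat (HF) diet were each fed for 8 weeks and are represented by 6 arrays. The labels also give an age of 8 weeks, call the arrays of a group biological replicates, and name neither the fat source nor the segment of intestine, the hour of dissection or a batch.

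Mammals cannot make linoleic or alpha-linolenic acid and take both from food. Fads2 then inserts a double bond, Elovl5 lengthens the chain, and Fads1 inserts a further double bond, which gives arachidonic acid from linoleic acid and eicosapentaenoic acid from alpha-linolenic acid. Elovl2 lengthens these products further on the way to docosahexaenoic acid, and Fads3, a close relative encoded beside Fads1 and Fads2, is known as a desaturase of sphingoid bases. In rodent liver, Fads1, Fads2 and Elovl5 are known as genes whose transcript falls when polyunsaturated fat is eaten.

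On the low P/S diet the small intestine had more Fads2 transcript (2.55-fold), more Fads1 (1.47-fold), more Elovl5 (1.40-fold) and more Fads3 (1.19-fold). Elovl2 was dim on both diets (geometric mean 62.8 on low P/S and 63.2 on control arrays) and lay below the limit set for testing. The 4 genes bright enough to be tested all passed the test as higher at an adjusted p under 0.05, and 17.8% of the 11962 genes tested did so (25.7% in either direction, 7.87% as lower). Over all genes 2132 were called higher and 942 lower with the deposited scaling. Forcing the arrays to 1 distribution (quantile normalization) made this 1772 higher and 1543 lower. The array medians lay between 91.9 and 99.5. Values below are intensities in arbitrary linear units, each difference is the mean log2 value on the low P/S diet less that on the control diet, with its limma standard error (n = 6 arrays per diet), and each adjusted p is limma's with Benjamini-Hochberg adjustment over all genes tested. Intensities of different probe sets are not compared with each other.

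The promoter windows of Fads2, Elovl5 and Fads3 are printed because these genes moved in the same direction with different sizes. Each runs from 250 bases before to 50 bases after the RefSeq transcription start (GRCm38.p6), 5′ to 3′ on the strand of the gene. Capitals mark the letters GGGCGG (GC box), CCAAT (the letters read by NF-Y) and CACGTG (E-box), or their reverse complement.
Fads2: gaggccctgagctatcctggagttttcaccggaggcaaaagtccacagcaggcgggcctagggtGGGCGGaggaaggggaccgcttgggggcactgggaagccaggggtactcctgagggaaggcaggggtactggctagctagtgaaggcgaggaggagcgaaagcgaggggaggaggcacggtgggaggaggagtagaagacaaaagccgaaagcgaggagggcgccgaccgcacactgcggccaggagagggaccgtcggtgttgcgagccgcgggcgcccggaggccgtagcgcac
Elovl5: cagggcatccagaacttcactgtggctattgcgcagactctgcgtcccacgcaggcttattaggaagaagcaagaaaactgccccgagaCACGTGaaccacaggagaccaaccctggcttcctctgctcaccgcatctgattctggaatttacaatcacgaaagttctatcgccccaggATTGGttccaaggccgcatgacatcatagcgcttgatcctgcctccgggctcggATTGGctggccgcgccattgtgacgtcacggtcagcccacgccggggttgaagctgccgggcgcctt
Fads3: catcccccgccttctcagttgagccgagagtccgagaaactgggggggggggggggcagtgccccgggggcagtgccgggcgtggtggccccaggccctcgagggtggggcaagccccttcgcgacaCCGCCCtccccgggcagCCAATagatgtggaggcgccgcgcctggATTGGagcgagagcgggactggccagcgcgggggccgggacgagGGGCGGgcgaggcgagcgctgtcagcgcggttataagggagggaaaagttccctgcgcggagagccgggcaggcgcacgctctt
The Fads2 window is chr19:10101454-10101753 on the minus strand, the Elovl5 window is chr9:77917115-77917414 on the plus strand, and the Fads3 window is chr19:10041298-10041597 on the plus strand. The Fads2 window held 1 GGGCGG match, which starts at -186 from the start site. The Elovl5 window held CACGTG at -161 and CCAAT, as ATTGG, at -71 and -17. The Fads3 window held CCAAT at -106 and, as ATTGG, at -78, and GGGCGG at -34 and, as CCGCCC, at -123. Of 32851 RefSeq promoters of the same length, 35.7% held GGGCGG, 37.4% held CCAAT and 7.15% held CACGTG on either strand. The letters TCACNCCAC and their narrower form TCACCCCAC (a sterol response element), which 1.24% and 0.551% of promoters hold, and the PPAR/RXR direct repeat, which 0.207% hold, were not in these 3 windows. A promoter was matched for 4 of the 5 genes. Elovl2, for which no change was detected, had 2 RefSeq windows, with 5 GGGCGG matches in one and none of the searched letters in the other. Fads1 is not shown.

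Fads2 (probe set 10465895), the desaturase of the entry step, had a lowest intensity of 914, a median of 1054 and a highest of 1285 on low P/S arrays, against 342, 415 and 479 on control arrays. The groups did not overlap, and the lowest low P/S array was 1.91-fold above the highest control array. The difference was 1.35 ± 0.09 (2.55-fold, 95% interval 2.22 to 2.92, adjusted p = 2.43e-07). Fads2 ranked as number 13 of 11962 tested genes by the size of its rise. Within the low P/S group, arrays 1, 2 and 4 lay between 1153 and 1285 and arrays 3, 5 and 6 between 914 and 956.

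Elovl5 (probe set 10587284), the elongase that acts on the product of Fads2, had a lowest intensity of 586, a median of 672 and a highest of 710 on low P/S arrays, against 412, 467 and 516 on control arrays. The groups did not overlap, with a gap of 1.14-fold between them. The difference was 0.48 ± 0.06 (1.40-fold, 95% interval 1.28 to 1.53, adjusted p = 6.33e-05), and 1.68% of tested genes had a larger rise. Array 6 was the lowest of its group on both diets.

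Fads1 (probe set 10461439), the desaturase of the later step, had a lowest intensity of 256, a median of 272 and a highest of 308 on low P/S arrays, against 173, 193 and 197 on control arrays. The groups did not overlap, and the gap between them was 1.30-fold. Its difference of 0.56 ± 0.05 (1.47-fold, 95% interval 1.36 to 1.59, adjusted p = 8.30e-06) was exceeded by 1.10% of tested genes. Every low P/S array lay above every control array in 6.86% of tested genes (10.8% without overlap in either direction), among them Fads1, Fads2 and Elovl5.

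Fads3 (probe set 10461423) had a lowest intensity of 115, a median of 124 and a highest of 143 on low P/S arrays, against 98.6, 102 and 125 on control arrays. The groups overlapped, because control array 6, at 125, lay above low P/S arrays 3, 5 and 6. The difference of 0.25 ± 0.07 (1.19-fold, 95% interval 1.07 to 1.31, adjusted p = 0.0161) was exceeded by 11.5% of tested genes. Without both control arrays 1 and 2, which an earlier analysis had placed nearest to the low P/S arrays, it did not pass (0.20, adjusted p = 0.0610). For Fads3 itself both arrays, at 98.6 and 100, lay below the control median, so leaving them out raised the control mean. On the control diet, array 6 had the least Fads2 and Elovl5 and the most Fads3.

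Elovl2 (probe set 10408838), the elongase of the longest polyunsaturated chains, lay at the 23.1 percentile of mean level over all measured genes, below the limit set for testing, a geometric mean intensity of 85.6. Its lowest, median and highest intensities were 60.2, 61.9 and 69.3 on low P/S arrays, against 56.9, 61.8 and 76.9 on control arrays. The groups overlapped, with a difference of -0.01 ± 0.06 (95% interval -0.14 to 0.12, adjusted p = 0.938 with no filter on dim genes). No change in Elovl2 was detected, and whether its signal exceeded background was not tested.

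**Figure D1:**
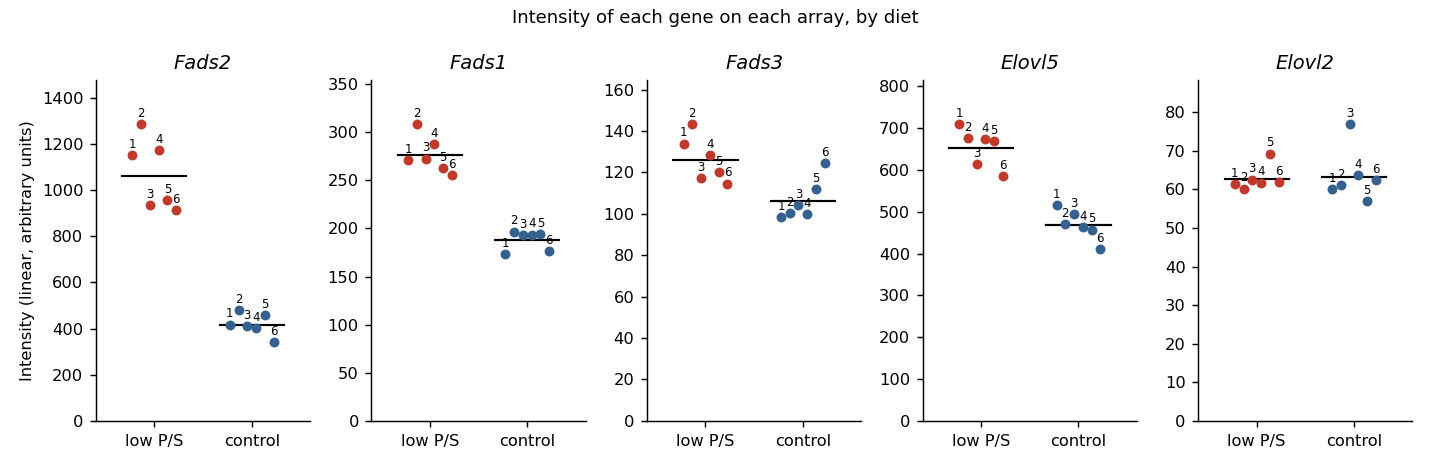
Intensity (linear, arbitrary units, each axis from 0) of Fads2, Fads1, Fads3, Elovl5 and Elovl2 on each array, with low P/S arrays (red) left of control arrays (blue), array numbers beside the points and black lines at the geometric mean of 6 arrays. The diets are separate for Fads2, Fads1 and Elovl5, while for Fads3 control array 6, at 125, lies above low P/S arrays 3, 5 and 6, and for Elovl2 the diets overlap.

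The responses of the 4 tested genes were compared with each other through the difference of log2 values within each array. This shows unequal change of signal and not which transcript is more abundant. No background was subtracted here, and a background shared by probe sets would shrink the log2 change of dim ones most. Fads3, at 106 on control arrays, lay near the limit for testing of 85.6. How far background shaped these pairs was not tested. In 6 pairs, tested with an exact two-sided permutation test over 924 arrangements of the 12 arrays, 5 differed. Fads2 rose 1.73-fold more than Fads1 (difference of the log2 differences 0.79, exact 95% interval 0.62 to 0.96), 1.82-fold more than Elovl5 (0.87, 0.68 to 1.06) and 2.15-fold more than Fads3 (1.10, 0.90 to 1.36). Fads1 rose 1.24-fold more than Fads3 (0.31, exact 95% interval 0.16 to 0.48). Each of these 4 pairs had an exact permutation p of 0.00216, the smallest that 6 against 6 arrays can give, and a Benjamini-Hochberg value of 0.00325 over the 6 pairs, and in each the low P/S arrays did not overlap the control arrays.

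Elovl5 rose 1.18-fold more than Fads3 (0.24, exact 95% interval 0.05 to 0.45, exact permutation p = 0.0195, adjusted p = 0.0234 over the 6 pairs), with arrays of the diets overlapping. This call ended with quantile normalization (0.16, exact permutation test, adjusted p = 0.145). For Fads1 and Elovl5 no difference in response was detected (0.07, exact 95% interval -0.07 to 0.23, exact permutation p = 0.329), so a response of Fads1 up to 0.23 larger, or 0.07 smaller, on the log2 scale lay within the interval.

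**Figure D2:**
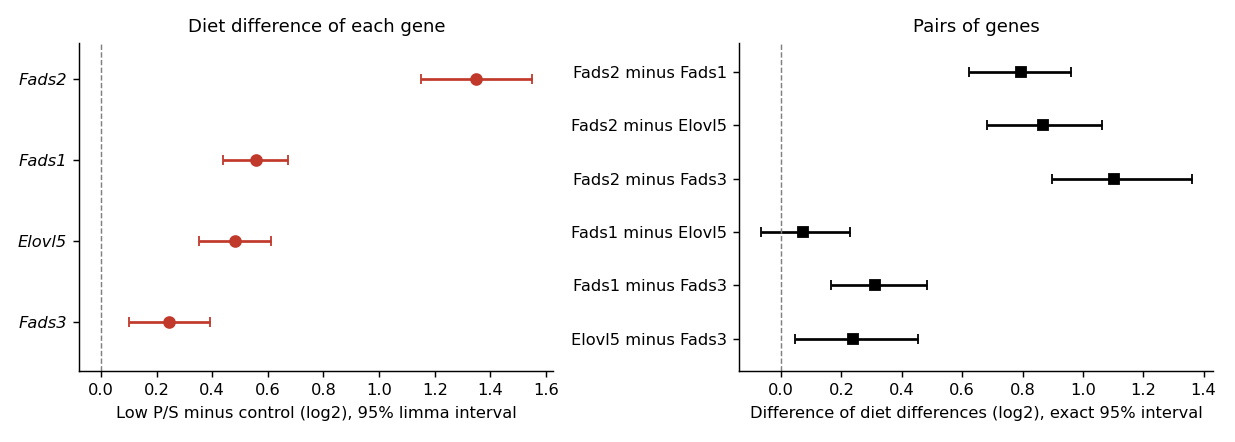
Left, low P/S minus control difference (log2) of Fads2, Fads1, Elovl5 and Fads3 with 95% limma intervals; right, how far the difference of one gene exceeded that of another (log2), with exact 95% intervals, for the 6 pairs (n = 6 arrays per diet). Fads2, at 1.35, stands above the others, and of the 6 pairs the interval of Fads1 minus Elovl5, -0.07 to 0.23, is the one that includes 0.

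On the low P/S diet the 4 tested genes had a Pearson r above 0 in all 6 pairs, between 0.487 and 0.969. Fads2 and Fads3 had a Pearson r of 0.969 (exact permutation p = 0.00556) and a Spearman rho of 0.943 (exact permutation p = 0.0167) over 6 arrays, and r was 0.936 without the 2 arrays farthest from the median of Fads2. Fads2 and Fads1 had r = 0.871 (exact permutation p = 0.0125) and rho = 0.829 (exact permutation p = 0.0583), and r was 0.665 without 2 arrays. Over all 12 relations computed, 6 in each diet, the smallest Benjamini-Hochberg values were 0.0667 for r and 0.100 for rho, so none passed.

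On the control diet Fads2 and Fads1 had r = 0.621 (exact permutation p = 0.217) and rho = 0.600 (exact permutation p = 0.242), with r = 0.148 without 2 arrays. Fads2 and Fads3 had r = -0.591 (exact permutation p = 0.217) and rho = -0.257 (exact permutation p = 0.658) there, and r turned to 0.880 without the 2 arrays farthest from the median of Fads2, so its sign rested on them. Fads1 and Fads3 had r = -0.286 (exact permutation p = 0.657) and rho = 0.143 (exact permutation p = 0.803). Elovl5 and Fads3 ran opposite ways on that diet, with r = -0.847 (exact permutation p = 0.0347) and rho = -0.771 (exact permutation p = 0.103). That relation rested on few arrays, since r was -0.253 without the 2 arrays farthest from the median of Elovl5. Whether the relations differed between the diets was not tested.

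Across all 12 arrays, where the diet sets most of the pattern, the tested genes most like Fads2 were Scd2, a stearoyl-CoA desaturase (r = 0.987), the class I histocompatibility gene H2-Q10 (r = 0.984) and Fads1 (r = 0.984). Those most like Fads1 were Fads2, the macrophage growth factor receptor gene Csf1r (r = 0.973) and H2-Q10 (r = 0.963). For Elovl5 they were Mmab, a gene of cobalamin metabolism (r = 0.980), the mitochondrial ribosomal gene Mrps21 (r = 0.971) and H2-K2 (r = 0.965). Fads3 had lower values, led by the receptor gene Ror2, the mevalonate pathway gene Mvd and the lipase gene Pnpla3 (r = 0.873 each). H2-Q10 and H2-K2 have near-identical relatives, and hybridization shared with them was not tested.

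With each diet's mean removed, which leaves the spread between animals, Csf1r was again among the 3 genes most like Fads1, and the others named below were not among those above. Fads2 followed Nubp2, of cytosolic iron-sulphur protein assembly (r = 0.934), Mcm2, of the DNA replication helicase (r = 0.934), and Rrp1 (r = 0.929). Fads1 followed Gpx3, a secreted glutathione peroxidase (r = 0.954), Csf1r (r = 0.871) and the complement gene C1qa (r = 0.848). Elovl5 followed Tubgcp5 (r = 0.946), Vps41 (r = 0.945) and Zfp518a (r = 0.942), and Fads3 followed Card19 (r = 0.899), Samd4b (r = 0.872) and the clock gene Cry1 (r = 0.868). These are the highest correlations over all tested genes, across 12 arrays that share a scaling, and they are given as a description.

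Of 9 macrophage and dendritic cell markers, 8 were bright enough to test and 6 rose on the low P/S diet, beside 17.8% of all tested genes. By limma, Csf1r was 1.45-fold (adjusted p = 0.000105) and C1qa 1.29-fold higher (adjusted p = 0.00634). The summed intensity of all 9 markers ran between 2474 and 3209 on low P/S arrays and between 2045 and 2488 on control arrays, and Adgre1 was dim. Lyz2, which did not pass (limma adjusted p = 0.170), was the largest part of this sum, at 1457 on low P/S and 1290 on control arrays. With diet means removed, this sum had r = 0.701 with Fads1, 0.558 with Fads2, 0.160 with Elovl5 and -0.02 with Fads3 over 12 arrays. The part of these markers in the Fads1 and Fads2 differences was not tested. In whole intestine, more cells of a type and more transcript per cell cannot be told apart.

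All 11 enterocyte markers were bright enough to test, 5 of them (Lct, Slc5a1, Anpep, Sis and Vil1) fell and 1, Fabp1, rose, with a summed intensity between 65473 and 76383 on low P/S arrays and between 73517 and 98839 on control arrays. Of 7 tested crypt and proliferation markers the 5 proliferation genes Mki67, Top2a, Cdk1, Mcm2 and Mcm6 rose. The stem cell markers Lgr5 (-0.14, limma adjusted p = 0.159) and Olfm4 (-0.004, limma adjusted p = 0.984) did not pass. Sums of all these markers, with dim Ascl2, ran from 3490 to 4516 on low P/S arrays and 2717 to 4326 on control arrays. Olfm4 was the largest part, at 2038 on low P/S and 2044 on control arrays. Of 10 tested goblet, Paneth and enteroendocrine markers 4 rose. Of 6 tested T and B cell markers 2 rose, Jchain and Mzb1 of antibody-secreting cells, and 2 fell, Cd3e and Cd8a of T cells. Among all tested genes 17.8% rose and 7.87% fell. None of 6 adipocyte, 4 exocrine pancreas, 2 hepatocyte and 8 smooth muscle markers passed by limma, and 4, 1, 0 and 0 of these had an unadjusted p under 0.05.

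**Figure D3:**
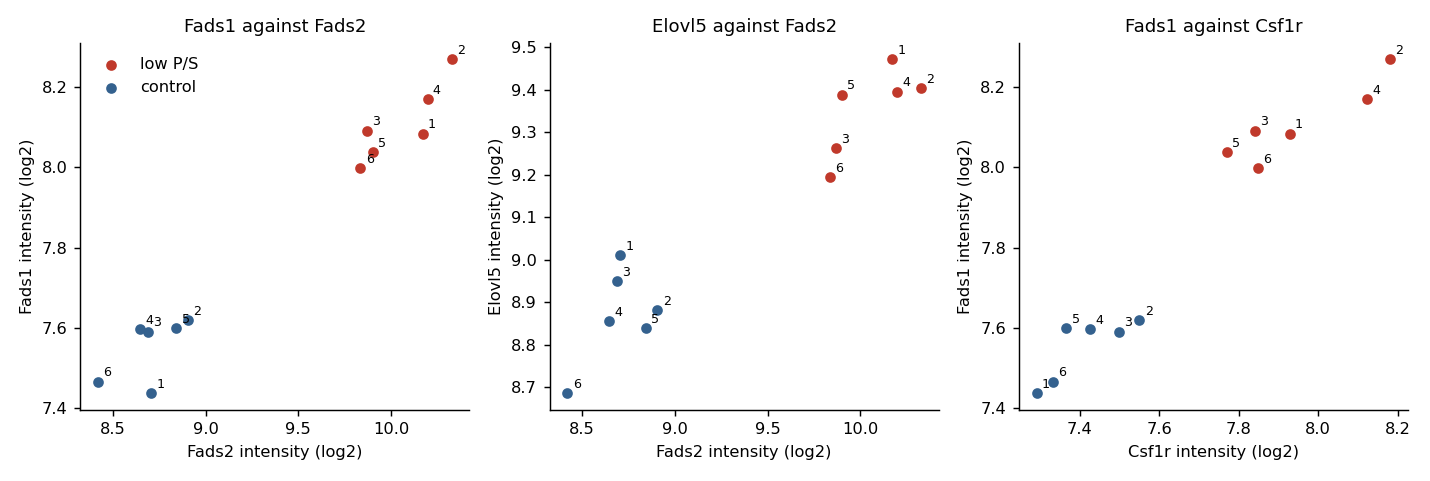
Log2 intensity of Fads1 against Fads2, of Elovl5 against Fads2 and of Fads1 against the macrophage receptor gene Csf1r, with 1 point for each of 6 low P/S arrays (red) and 6 control arrays (blue), numbered. The diets form separate clusters in each panel, and within the low P/S cluster arrays 2 and 4 are the highest for Fads1, Fads2 and Csf1r.

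The enzymes that work with these genes were read from a list of 25 desaturation, elongation and peroxisomal retroconversion genes, of which 23 were found and 19 tested. Of these 7 rose, 1 fell and 11 did not pass, with a median difference of 0.12, against 0.02 over all genes tested. Among all genes tested 17.8% rose and 7.87% fell. The rises included Tecr, the last enzyme of the elongation cycle (0.49 ± 0.06, limma adjusted p = 5.03e-05), Hsd17b12, its ketoreductase (0.62 ± 0.10, limma adjusted p = 0.000453), and Elovl6, the elongase of saturated chains (0.61 ± 0.09, limma adjusted p = 0.000163). Degs1, the desaturase that makes ceramide, fell by 0.32 on the log2 scale (SE 0.05, limma adjusted p = 0.000235). Under quantile normalization 6 were higher and 3 lower.

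Some partners were chosen after their values were seen. Peroxisomal Abcd3, which imports acyl-CoA, rose 1.55-fold (limma adjusted p = 0.000817), the thiolase gene Acaa1b 1.80-fold (limma adjusted p = 0.00148) and the thioesterase gene Acot8 1.39-fold (limma adjusted p = 0.000852). The electron donors of the desaturases did not pass, with differences of -0.12 ± 0.06 for Cyb5a, -0.03 ± 0.07 for Cyb5b and -0.18 ± 0.08 for Cyb5r3. Fads6, another gene named as a desaturase, had a difference of 0.03 ± 0.05.

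The stearoyl-CoA desaturases, which act on saturated chains, had larger differences. Scd2 was at a lowest of 2998, a median of 3855 and a highest of 5279 on low P/S arrays, against 186, 259 and 420 on control arrays (3.88 ± 0.18). Scd1 was at 9438, 10374 and 12359 on low P/S arrays, against 592, 2501 and 3879 on control arrays (2.44 ± 0.33).

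Of 16 acyl-CoA synthetases and acyltransferases that place fatty acids in phospholipids, 14 were found and 11 tested. Here 6 rose while 5 did not pass (median 0.30), beside 17.8% higher among all tested genes. Acsl4, a synthetase that prefers arachidonic acid, rose 1.47-fold (0.55 ± 0.09, limma adjusted p = 0.000415). The lysophospholipid acyltransferase genes Lpcat4 (1.33-fold), Lpcat2 (1.23-fold) and Agpat5 (1.31-fold) also rose. With a filter at the 60th percentile, 3 of the genes left rose, as dim genes such as Acsl4 were no longer tested.

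Of 27 genes of arachidonate release and eicosanoid synthesis, transport and breakdown, 25 were found and 18 tested. In this list 4 rose, 3 fell and 11 did not pass (median 0.01), beside 17.8% higher and 7.87% lower among all tested genes. Pla2g4a, the cytosolic phospholipase that releases arachidonic acid, rose 1.31-fold (limma adjusted p = 0.00370). The 3 that fell belong to prostaglandin uptake and inactivation. They were the transporter gene Slco2a1 (1.79-fold lower), the dehydrogenase gene Hpgd (2.05-fold lower, 1645 on low P/S and 3373 on control arrays) and the reductase gene Ptgr1 (2.08-fold lower). Ptgs2, the inducible cyclooxygenase gene, chosen after its values were seen, had a difference of 0.13 ± 0.23.

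Among 20 transcription factors and sterol-sensing proteins, 18 were tested. Of them 7 rose while 11 did not pass (median 0.11), beside 17.8% higher among all tested genes. The sterol sensor gene Insig1 rose 2.76-fold, Srebf1, a regulator of fatty acid synthesis and desaturase genes, 1.48-fold (0.56 ± 0.15, limma adjusted p = 0.0110), the protease gene Mbtps1, which activates SREBP, 1.34-fold and Srebf2 1.27-fold. The Srebf1 call was lost when the variance was not shrunk across genes (adjusted p = 0.0520). In this list 5 genes were higher and 3 lower under quantile normalization. Ppara, the fatty acid receptor, had a difference of -0.21 ± 0.08 (limma adjusted p = 0.0550), and passed as lower in 7 of 23 alternative fits, among them quantile normalization (-0.28, limma adjusted p = 0.0235) and those without low P/S array 2 or 6 or control array 2.

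In lists of genes named for the regulators of these pathways, the shares called higher can be read against 17.8% of all tested genes. Of 15 tested SREBP-1 type fatty acid synthesis genes 13 rose and 2 did not pass (median 0.80), with Gpam 2.83-fold, Me1 2.25-fold and Pgd 1.74-fold higher. Of 14 tested SREBP-2 type sterol genes 13 rose and 1, Stard4, fell (median 0.76), with Fdps 2.03-fold, Nsdhl 1.89-fold, Fdft1 1.64-fold and Mvd 1.59-fold higher. Stard4, named after its values were seen, fell by 0.20 on the log2 scale (SE 0.06, limma adjusted p = 0.0241), a call lost when low P/S array 3 or 4 was left out. Of 15 tested PPAR-alpha type genes 11 rose and 4 did not pass (median 0.60), with Acot1 4.55-fold, Plin2 2.60-fold, Acot2 2.52-fold and Ehhadh 1.88-fold higher. By its size the Fads2 difference of 1.35 lies among the upper values of these lists, and those of Fads1, Elovl5 and Fads3 lie below all 3 medians.

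**Figure D4:**
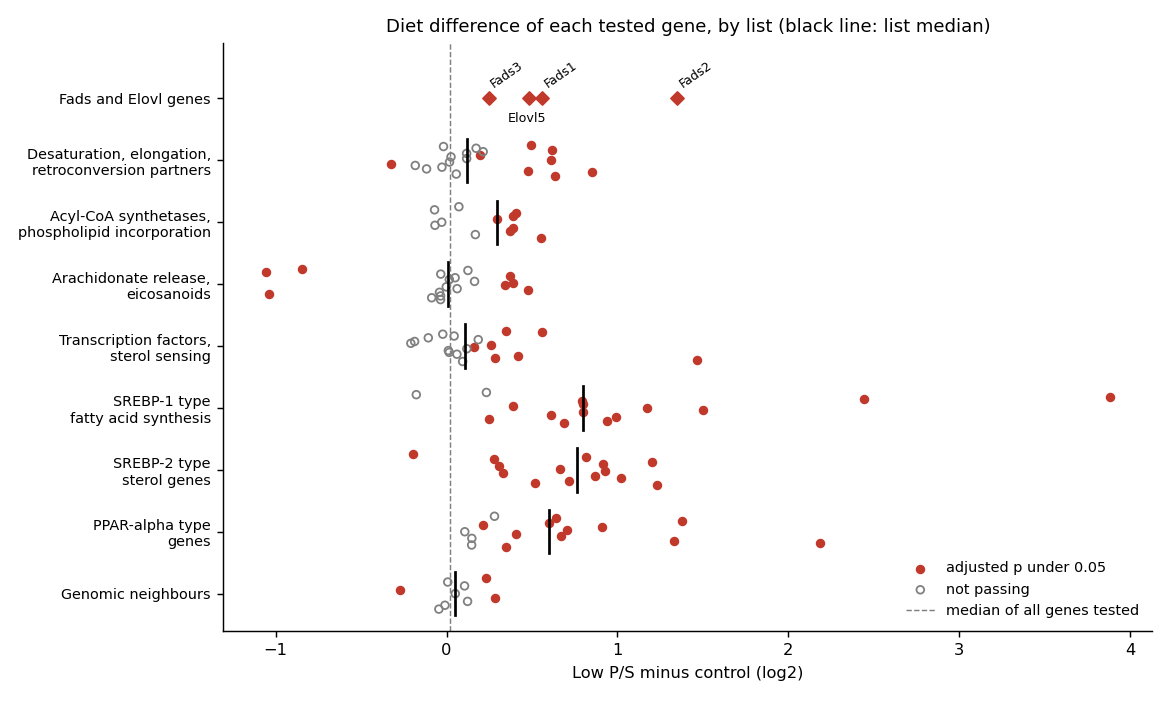
Low P/S minus control difference (log2) of each tested gene in 8 lists, with filled points at an adjusted p under 0.05, open points for genes that did not pass, black lines at list medians and the dashed line at the median of all genes tested, 0.02. The top row gives Fads3 at 0.25, Elovl5 at 0.48, Fads1 at 0.56 and Fads2 at 1.35; 3 eicosanoid genes lie at -0.84 to -1.06.

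The neighbours of these genes on the chromosome were also read. In the RefSeq gene order (GRCm38.p6), Fads3, Fads2, Fads1, Fen1 and Tmem258 stand next to each other on chromosome 19. Their differences, in that order, were 0.25, 1.35, 0.56, 0.28 and 0.23. Fen1, a nuclease of DNA replication, had a lowest intensity of 168, a median of 178 and a highest of 192 on low P/S arrays, against 129, 150 and 160 on control arrays (limma adjusted p = 0.00328). Its groups did not overlap, and those of Tmem258, a subunit of the oligosaccharyltransferase, did (limma adjusted p = 0.00576).

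Beyond them, Myrf had a difference of 0.01 ± 0.07 and Rab3il1, on the other side of Fads3, was dim. Beside Elovl5 on chromosome 9, the glutathione synthesis gene Gclc fell by 0.27 on the log2 scale (SE 0.09, limma adjusted p = 0.0290), a call lost in 8 of 23 alternative fits (adjusted p between 0.0519 and 0.0754), including when any 1 of low P/S arrays 3 and 6 and control arrays 5 and 6 was left out. Of the 9 tested genes in the neighbour list, 2 (Fen1 and Tmem258) rose, 1 fell and 6 did not pass (median 0.05), and 17.8% of all tested genes rose. Of the crypt and proliferation markers, the replication gene Mcm2 was 1.82-fold higher (limma adjusted p = 0.000553), and the part of these markers in the Fen1 difference was not tested.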

How the data were processed

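The deposited table holds array intensity values on a linear scale for 34760 probe sets and 12 arrays. Per the labels, labelled cDNA was prepared from 500 ng of RNA with an Affymetrix whole-transcript kit, keeping ribosomal RNA. The sources used here do not say how the authors summarized and normalized these intensity values. Small shifts shared by many genes therefore depend on an unknown scaling, and precision is limited by having 6 arrays per diet.

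Probe sets naming 1 gene symbol (21640) were kept, 1321 naming several and 11799 naming none were left out, and symbols were checked through Entrez IDs (21553 matched, 0 updated). The brightest probe set by its mean over 12 arrays stood for each of 19937 genes. Deposited values were converted to log2, and genes under the 40th percentile of mean level were left out as dim, which left 11962. The diets were compared with limma 3.58.1 (lmFit, eBayes, two-sided) in R 4.3.3, with Benjamini-Hochberg adjustment across every tested gene. Pairs of genes were compared with exact two-sided permutation tests, and intervals came from inverting the test (Python 3.11.15, NumPy 2.4.6, pandas 2.3.3, SciPy 1.17.1; plots with matplotlib 3.10.9). Both steps were checked on simulated data.

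The genes, the 8 lists and the tests were chosen with earlier results of these data known, so no p is given over a list alone. Named were all 5 genes, the up to 4 passing genes of smallest p in each list, 10 lipid genes whatever their values, and the 3 genes most like each tested gene. Some list genes are not analysed here. Protein sequences were not used here. Alternatives changed the scaling, dim filter, probe set rule, pseudocount (16), variance model, array weights, replicate block and arrays left out. Replicate numbers are shared between the diets but nothing in the labels makes them pairs.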

Additional observations from a re-analysis of the deposited data

Results flagged for a closer look

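In groups of 6 arrays, 5 values among the 56 named genes (112 groups) lay so far from the other arrays of their diet that the gap exceeded Dixon's 95% critical share of the group's range. Chance flags about 1 in 20 groups.

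Elovl2 gave 2 of them. Low P/S array 5 had an intensity of 69.3, against 62.6 for the next highest low P/S array, and control array 3 had 76.9, against 63.7 for the next highest control array. Acsl4 was highest on control array 2, at 110.3, with the next control array at 94.9. H2-Q10 was also highest on control array 2, at 302, with the next control array at 214. Card19 was highest on control array 6, at 368, with the next control array at 322. Fads1, Fads2, Fads3 and Elovl5 had no such array.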

How the results depend on the processing

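The differences of Fads2, Fads1 and Elovl5 kept their direction and passed in all 23 alternative fits, with ranges of 1.27 to 1.40, 0.51 to 0.58 and 0.41 to 0.52 and highest adjusted p values of 0.000307, 0.000514 and 0.00167. Fads3 kept its direction in the 22 fits it entered and lost its call in 1, without both control arrays 1 and 2 (0.20, adjusted p = 0.0610), and was too dim for the 60th percentile filter. Elovl2 moved between -0.04 and 0.05, by less than the spread between arrays. Of the pairs, Elovl5 minus Fads3 lost its call with quantile normalization (0.16, adjusted p = 0.145). The replicate block changed no call of these genes or pairs (Fads2 1.35, adjusted p = 5.59e-07; Fads3 adjusted p = 0.0339; pairs with 64 sign patterns, highest passing adjusted p 0.0375), and same-numbered arrays correlated best with each other for 2 of 6 numbers. Over all genes, alternatives gave 2409 to 3855 calls; quantile normalization gave 1543 lower calls in place of 942, and without both control arrays 1 and 2 there were 2718 higher. Lower calls in the partner list numbered 3 with quantile normalization and 2 with no filter, and in the acyltransferase list 1 with quantile normalization. Higher calls with the 60th percentile filter, which tests fewer genes, numbered 3 in the acyltransferase and 1 in the neighbour list. In the regulator list lower calls numbered 3 with quantile normalization, 1 with the 60th percentile filter or array weights and 2 with the replicate block or without both control arrays 1 and 2, and higher calls numbered 4 with an ordinary variance. Lower calls in the SREBP-2 type list were 0 with median centring and without both control arrays, and those of the neighbours were 0 with these, with an ordinary variance and with array weights. Leaving out 1 array gave 1 to 2 lower partners, 0 to 2 lower regulators, 0 to 1 lower SREBP-2 type genes and 0 to 1 lower neighbours. Of 51 other named genes, Vps41 turned sign with quantile normalization (-0.068). Leaving out 1 array gave -0.024 to 0.043 for Vps41, -0.053 to 0.0096 for Card19 and -0.072 to 0.0029 for Samd4b, the last 2 positive only without control array 6, and none of these sign changes passed. Ppara passed as lower in 7 alternatives (adjusted p between 0.0130 and 0.0473) and Rrp1 as higher in 3 (0.0370 to 0.0412), while Gclc lost its call in 8 and Srebf1 in 1. The cause of these changes was not tested beside the number of genes or arrays in each fit.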
